A study of Mus musculus with 2 samples.

Results

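In the adult mouse hippocampus, 259 protein-coding genes had a promoter rich in CpG dinucleotides and yet no listed peak of accessible chromatin nearby. No peak was listed within 1 kb of any of their annotated transcription start sites (TSSs). A promoter without a listed peak may still hold accessibility below the limit of detection. The 259 genes were chosen among 21951 protein-coding genes of the GENCODE M21 annotation. A promoter counted as CpG-rich where the observed number of CpGs within 500 bp of the gene 5' end was at least 0.7 times the number its C and G content predicts, a ratio called CpG observed/expected below. This held for 7527 genes. Of these, 259 had no peak in the longer deposited peak list of either library, 178 (2.36%) had a peak in 1 library and 7090 had one in both. The members were thus chosen by CpG content and by the measured peaks of both libraries, and shares with or without a peak are descriptions. The share without a peak was 3.44% of CpG-rich promoters (95% Wilson interval 3.05 to 3.88), against 33.8% of all protein-coding genes and 49.7% of the 14424 genes whose promoter is not CpG-rich.

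The assay was DNase-seq, in which DNase I cuts DNA that is free of nucleosomes and sequenced cut ends map accessible chromatin. Tissue came from female B6CASTF1/J mice aged 2 months, F1 hybrids of C57BL/6J and CAST/EiJ mice, and the labels call it hippocampus in one field and a layer of it in another. There were 2 libraries, labelled biological replicates 1 and 2 of the same untreated group, which share a donor record and differ in their biosample record. With 1 group there was no comparison of conditions, and no test across libraries was possible. The intervals given with shares cover only counting error, and genes are not independent replicates. The longer peak lists held 129779 peaks in replicate 1 and 71895 in replicate 2, and the labels give no read depth. As a check of the tissue label, all 7 genes of excitatory forebrain neurons and all 5 of dentate granule cells had a promoter peak in both libraries, as did 6 of 7 pan-neuronal, 3 of 4 CA1, 3 of 5 astrocyte, 2 of 5 oligodendrocyte, 1 of 4 endothelial and 1 of 4 choroid plexus markers. Of the microglial markers 0 of 5 passed in both libraries (3 passed in replicate 1), and of the cerebellar and hindbrain markers 0 of 5 (1 in replicate 1). In such a tissue a site open in few cells and a site weakly open in many cannot be told apart.

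CpG islands are stretches of DNA that have kept their CpGs, mostly because they stay unmethylated in the germ line. Proteins with a CXXC domain bind unmethylated CpGs there, and most island promoters are free of nucleosomes at the TSS in every tissue. The best known exceptions are islands of developmental regulators, which Polycomb complexes occupy in cells where the gene is silent, and islands of some germline genes, which are methylated in somatic cells. Neither Polycomb binding nor DNA methylation was measured here.

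The letters of 4 members, chosen for many CpGs or a high CpG observed/expected, and of 1 accessible CpG-rich promoter are printed here as examples. They run from 250 bp before to 50 bp after the gene 5' end on the GRCm38 assembly from RefSeq, 5′ to 3′ on the gene's strand, with CpGs in capitals. Hoxa13 (chr6:52260831-52261130, minus strand), Irx2 (chr13:72628570-72628869, plus strand) and Zfp541 (chr7:16061564-16061863, plus strand) have the most CpGs among the Hox, other homeobox and germ cell members. Barhl2 (chr5:106458117-106458416, minus strand) has the highest CpG observed/expected of all 259 members. Hjurp (chr1:88277584-88277883, minus strand), which encodes the chaperone that loads the centromeric histone, is the CpG-rich promoter with the highest mean peak value.
Hoxa13: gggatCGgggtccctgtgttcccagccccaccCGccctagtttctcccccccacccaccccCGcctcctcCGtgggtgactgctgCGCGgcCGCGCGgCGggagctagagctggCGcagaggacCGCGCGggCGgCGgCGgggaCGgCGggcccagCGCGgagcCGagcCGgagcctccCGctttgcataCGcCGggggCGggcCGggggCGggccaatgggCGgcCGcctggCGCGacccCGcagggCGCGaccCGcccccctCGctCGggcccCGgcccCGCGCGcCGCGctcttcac
Irx2: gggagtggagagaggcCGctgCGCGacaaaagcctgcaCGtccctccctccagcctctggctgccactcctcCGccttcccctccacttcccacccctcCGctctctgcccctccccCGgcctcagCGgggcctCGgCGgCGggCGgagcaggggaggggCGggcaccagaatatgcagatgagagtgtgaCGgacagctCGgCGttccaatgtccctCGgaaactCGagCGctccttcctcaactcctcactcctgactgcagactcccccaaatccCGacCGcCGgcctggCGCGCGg
Zfp541: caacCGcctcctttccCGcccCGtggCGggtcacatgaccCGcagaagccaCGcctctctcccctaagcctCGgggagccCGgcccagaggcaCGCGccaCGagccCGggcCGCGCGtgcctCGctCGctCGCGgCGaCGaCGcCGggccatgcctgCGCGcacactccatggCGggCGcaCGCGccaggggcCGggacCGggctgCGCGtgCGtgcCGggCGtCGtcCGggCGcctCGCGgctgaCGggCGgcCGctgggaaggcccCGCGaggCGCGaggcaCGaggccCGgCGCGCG
Barhl2: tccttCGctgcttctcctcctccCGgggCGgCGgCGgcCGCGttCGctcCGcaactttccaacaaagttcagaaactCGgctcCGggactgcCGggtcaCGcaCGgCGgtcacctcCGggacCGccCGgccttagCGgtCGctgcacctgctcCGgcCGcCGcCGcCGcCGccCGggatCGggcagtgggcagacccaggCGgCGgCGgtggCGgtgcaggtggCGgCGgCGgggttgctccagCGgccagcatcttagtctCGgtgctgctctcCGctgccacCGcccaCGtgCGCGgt
Hjurp: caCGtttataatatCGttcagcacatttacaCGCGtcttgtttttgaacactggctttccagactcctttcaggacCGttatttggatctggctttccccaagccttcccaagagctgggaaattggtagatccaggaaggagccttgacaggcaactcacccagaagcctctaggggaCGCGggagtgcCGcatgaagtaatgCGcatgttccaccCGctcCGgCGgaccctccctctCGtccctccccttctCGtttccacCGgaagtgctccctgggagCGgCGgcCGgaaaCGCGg
These 300 bp hold 45 CpGs in Hoxa13, 25 in Irx2, 53 in Zfp541 and 42 in Barhl2, against 20 in Hjurp. GC content was 81.0% in Hoxa13, 69.0% in Irx2, 79.7% in Zfp541 and 73.7% in Barhl2, against 56.7% in Hjurp. Hjurp had peak values of 26.3 in replicate 1 and 18.6 in replicate 2, on the authors' own scale, and the 4 members had no peak in either library. Of the 5 promoters, the accessible one has the fewest CpGs. The 4 members were chosen for CpG number or ratio, so this order is no difference between the classes.

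In the median, CpG number did not set the promoters without a peak apart. They had a median of 79 CpGs in the 1 kb around the gene 5' end, the same as CpG-rich promoters with a peak in both libraries (79), and against 41 over all protein-coding genes. Median GC content was 63.6% in members and 62.3% in promoters with a peak in both libraries. The CpG island around the 5' end had a median length of 850 bp in members and 900 bp in promoters with a peak in both. CpG observed/expected, which the rule used, had a median of 0.785 in members and 0.825 in promoters with a peak in both. The share without a peak was 4.68% where the ratio was 0.7 to 0.8 (143 of 3054), 2.68% at 0.8 to 0.9, 2.88% at 0.9 to 1, and 0.990% at 1 and over (4 of 404). By CpG number the share lay between 2.28% and 3.52% in each bin from 40 CpGs up, and was 51.4% (18 of 35) under 40 CpGs.

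**Figure D1:**
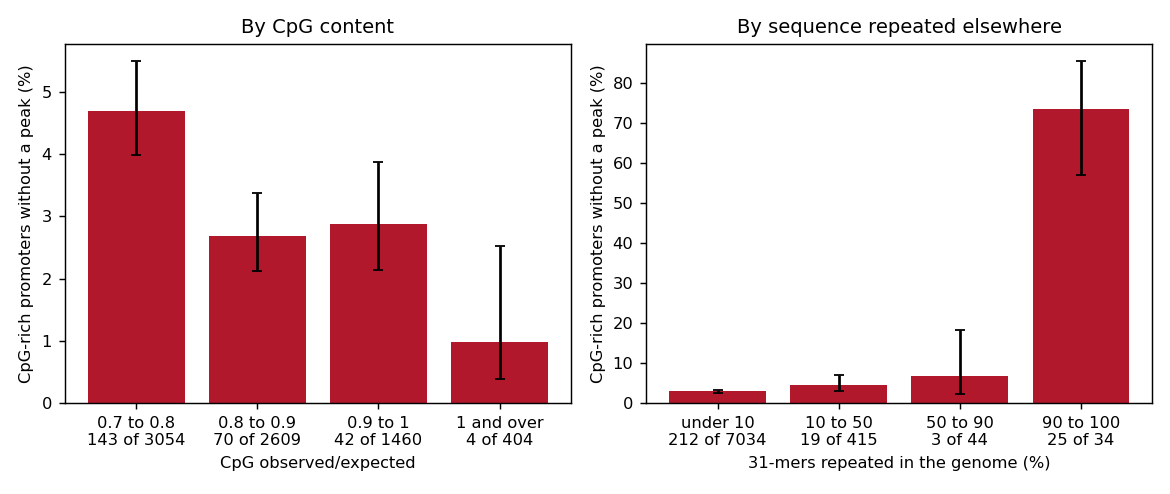
Share of CpG-rich promoters without a peak in either library (y axes, %) by CpG observed/expected within 500 bp of the gene 5' end (left) and by the share of the promoter's 31-mers that occur elsewhere in the genome (right). Bars are shares with their 95% Wilson intervals, and the counts stand under each bar; the share is 4.68% in the lowest and 0.990% in the highest bin of CpG content, and 3.01% in the lowest and 73.5% in the highest bin of repeated sequence.

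Members had fewer annotated starts than other CpG-rich genes, with a median of 2 TSSs, against 5 in genes with a peak in both libraries. The rule favours this, since each further TSS is another place where a peak would remove the gene. A transcript of the best support level (level 1) was annotated for 220 members (84.9%), against 93.0% of genes with a peak in both. Only single-exon transcripts were annotated for 27 members. Another protein-coding gene's 5' end lay within 1 kb of 23 members, and for 14 of these the neighbour was a member too, so not all 259 are separate regions. The counts of single-exon genes and of close 5' ends were taken over members only and show no contrast with other promoters.

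The 10 members with the highest CpG observed/expected were of mixed function, and 4 of them (Barhl2, Wnt5b, Hoxa5 and Ovol1) were on a list of developmental factors or ligands. Barhl2, a homeobox factor of spinal cord and retinal neurons, had a CpG observed/expected of 1.07, and its nearest peak was 37.0 kb away in each library. Wnt5b, a secreted Wnt ligand, and Traf3, an adaptor of immune receptors, stood at 1.00 each. Their nearest peaks were much closer, at 2.88 kb in both libraries for Wnt5b, and at 1.61 kb in replicate 1 and 1.49 kb in replicate 2 for Traf3. Tmem200b, Zyg11a, Hoxa5, Ank1 (the ankyrin of the red cell membrane skeleton), Dchs1 (a giant cadherin), Ovol1 (an epithelial transcription factor) and Cabp7 (a calcium-binding protein) followed, between 0.982 and 1.00. These 10 were taken among members with under 10% of their promoter repeated elsewhere in the genome.

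At the threshold of 0.7 the members just inside were Zic4 (0.701), Phox2a (0.703) and Gcgr (0.703), and the peakless genes just outside were Scx, Atp2a3 and Pcdha3, all at 0.699 or just above. At the limit of 1 kb the members just inside were Tesc, whose nearest peak lay 1.03 kb from a TSS in replicate 1, Bcor at 1.06 kb in replicate 2 and Hist2h3c2 at 1.07 kb in replicate 2. Just outside were Nudt10 at 0.974 kb and Slc6a4 at 0.961 kb in replicate 2, and Avpr1a at 0.959 kb in both libraries.

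Transcription factors of development made up the largest group of members that a list named. Across the Hox, other homeobox and other developmental factor lists, 68 of 126 CpG-rich promoters had no peak, beside the 3.44% of all CpG-rich promoters. They were 26.3% of members and 0.381% (27) of CpG-rich promoters with a peak in both libraries. Pairs of distances or peak values below are in the order replicate 1, replicate 2. The lists were drawn up with earlier results of these libraries known and are no independent evidence. Of all 259 members, 123 were on at least 1 of the 18 lists and 136 on none.

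**Figure D2:**
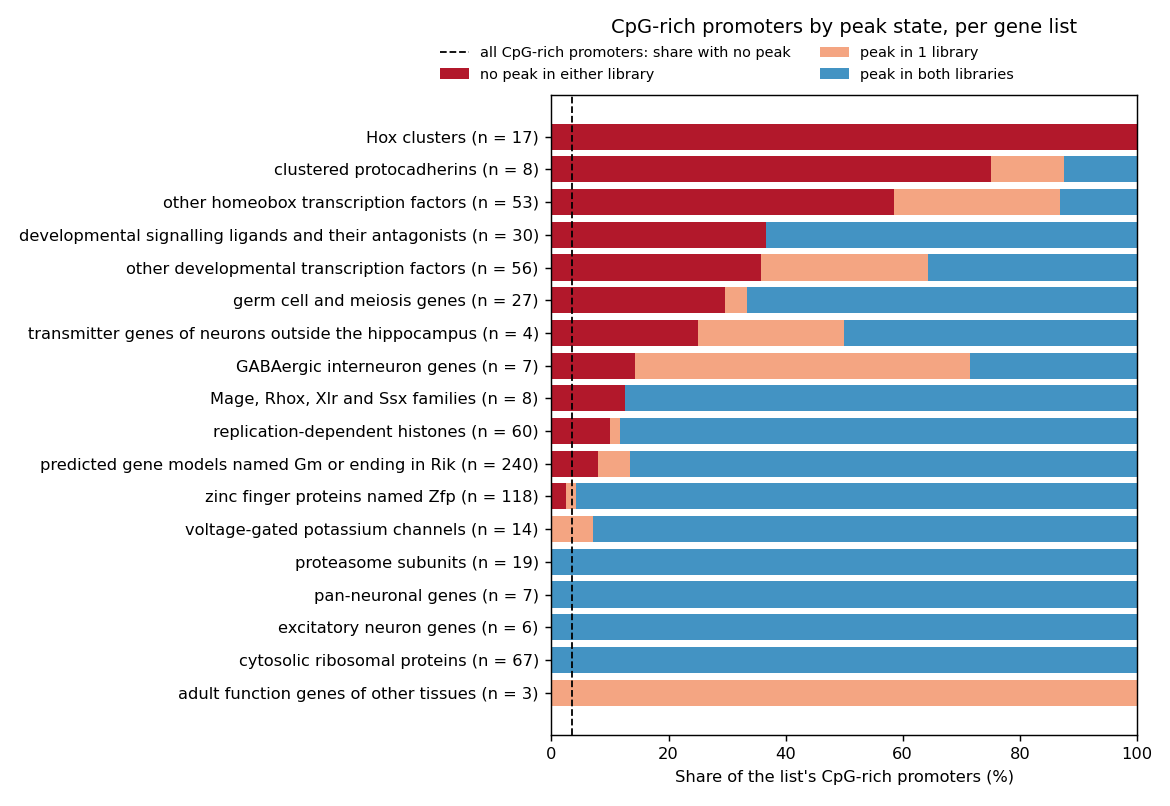
Share of each gene list's CpG-rich promoters (x axis, %) with no peak in either library, a peak in 1 library, or a peak in both; n is the number of CpG-rich promoters, and the dashed line is the share of all CpG-rich promoters without a peak, 3.44%. All 17 CpG-rich Hox promoters are without a peak, and none of the 67 of cytosolic ribosomal proteins is.

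Hox genes encode the homeobox factors that give body segments their identity along the head-to-tail axis, and the forebrain lies in front of their expression domain. All 17 CpG-rich Hox promoters lacked a peak in both libraries (95% Wilson interval of the share 81.6 to 100%). They comprised 4 of the 11 genes of the Hoxa cluster on chromosome 6, 4 of 10 of Hoxb on chromosome 11, 3 of 9 of Hoxc on chromosome 15 and 6 of 9 of Hoxd on chromosome 2. CpG observed/expected ran from 0.704 in Hoxc13 to 0.996 in Hoxa5, and the number of CpGs from 38 in Hoxb8 to 126 in Hoxa13. Hoxa4 had 125 CpGs and Hoxd13, a gene of digit and urogenital patterning, had 118. Hoxd3 and Hoxd4 have annotated 5' ends 2 bp apart, so these 2 of the 17 promoters are nearly the same region.

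Peaks lay between and beside the Hox genes all the same. The nearest peak to a CpG-rich Hox promoter was 1.22 to 39.8 kb away in replicate 1 and 1.16 to 66.4 kb away in replicate 2. Hoxb5 was closest in each library, and Hoxc13 was farthest in each. Hoxc promoters were 16.4 to 39.8 kb from a peak in replicate 1, against 3.58 to 7.04 kb for Hoxa, 1.22 to 7.34 kb for Hoxb and 2.12 to 15.0 kb for Hoxd. In replicate 2 the range was 33.1 to 66.4 kb for Hoxc, 3.56 to 29.9 kb for Hoxa, 1.16 to 7.56 kb for Hoxb and 2.14 to 46.9 kb for Hoxd. The Hoxc and Hoxd ranges thus overlap in replicate 2. None of the 17 had a base under the FDR limit of 0.05 within 1 kb of a TSS, beside 26 (10.04%) of all 259 members. With only 17 promoters this does not set the Hox members apart. The 3 Hox genes with a promoter peak were not CpG-rich: Hoxa7 had values of 1.47 in replicate 1 and 1.63 in replicate 2, and Hoxa10 (0.442) and Hoxc5 (0.690) had a peak in replicate 1 only. Of the 39 Hox genes, 36 had no peak in either library.

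**Figure D3:**
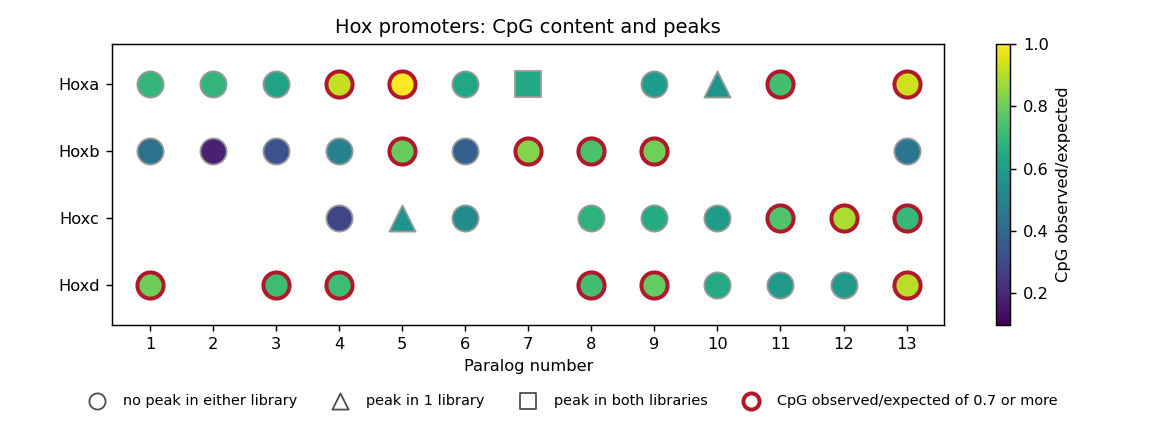
The 39 Hox genes by cluster (rows) and paralog number (x axis), with colour for CpG observed/expected within 500 bp of the gene 5' end, shape for the number of libraries with a peak within 1 kb of a TSS, and a red rim for a ratio of 0.7 or more. The 17 rimmed genes are all circles, without a peak, and the 3 genes with a peak have no red rim.

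Among the other homeobox factors, 31 of 53 CpG-rich promoters (58.5%, 45.1 to 70.7) had no peak, 15 had a peak in 1 library and 7 in both. Irx2, an Iroquois factor, had 124 CpGs and its nearest peak 66.1 kb away in replicate 1 and 59.7 kb away in replicate 2. Six2, which maintains nephron progenitors, had 119 CpGs, and its nearest peak was 16.3 kb away in replicate 1 and 23.0 kb away in replicate 2. Hmx1, a factor of eye and ear development, had 118 CpGs, with distances of 9.05 and 27.0 kb. Isl1, a motor neuron and heart factor, lay 88.0 kb from a peak in replicate 1 and 134 kb in replicate 2. Otx2, a factor of early head development, lay 36.1 kb from a peak in each library. En1, a factor of the midbrain and hindbrain, lay 7.56 and 15.7 kb away, and Lmx1b, a factor of midbrain dopamine neurons, 2.67 kb away in each. Isl1, Otx2, En1 and Lmx1b were chosen for mention after their values were seen.

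The homeobox promoters with a peak had low values. The 7 with a peak in both libraries had a median of the mean peak value (the mean of both libraries' highest peak) of 1.58, against a median of 3.83 and quartiles of 2.27 and 5.79 for all CpG-rich promoters with a peak in both. The highest among the 7 were Onecut2, at 4.10 in replicate 1 and 3.13 in replicate 2, and Emx2, a factor needed for the growth of the hippocampus, at 3.67 and 2.72. Prox1, a marker of dentate granule cells, had 1.69 and 1.75. Values in the 15 promoters with a peak in 1 library, such as Dlx2, En2 and Lhx5, ran from 0.292 to 0.920. Of these 15, 12 had their peak in replicate 1, the library with the longer list. Over all 178 CpG-rich promoters with a peak in 1 library, 103 had it in replicate 1 and 75 in replicate 2.

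Other developmental factors of the basic helix-loop-helix, forkhead, T-box and zinc finger families had 20 of 56 CpG-rich promoters without a peak (35.7%, 24.5 to 48.8), 16 with a peak in 1 library and 20 with a peak in both. Twist1, a factor of mesoderm and neural crest, had 114 CpGs and its nearest peak 94.5 kb away in each library. Skor1, a corepressor of dorsal spinal cord neurons, had 113 CpGs and distances of 10.8 and 13.9 kb. Foxf1, a forkhead factor of lung and gut mesenchyme, had 112 CpGs, a CpG island of 2650 bp and a distance of 8.38 kb in each library. The 20 promoters with a peak in both libraries had a median mean peak value of 0.854. Among them were Olig1, a factor of oligodendrocytes, at 1.56 and 1.33, and Nr2e1, a nuclear receptor of neural stem cells, at 1.70 and 1.23.

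Secreted ligands and antagonists of the Wnt, BMP, FGF and Hedgehog pathways had 11 of 30 CpG-rich promoters without a peak (36.7%, 21.9 to 54.5) and 19 with a peak in both libraries. None had a peak in only 1 library. At a CpG observed/expected of at least 0.8 the share was 20% (of 15 promoters). The members included 5 Wnt ligands (Wnt2b, Wnt3a, Wnt5b, Wnt6 and Wnt9b), Bmp8b, Gdf7, Fgf16 and Rspo1, a secreted enhancer of Wnt signalling. Fgf8, a signal of the midbrain-hindbrain boundary, had 102 CpGs and 4 peaks of replicate 1 and 7 of replicate 2 at 1 to 10 kb from its 5' end, among the most of all members. Ihh, the Hedgehog ligand of growing cartilage, had 101 CpGs and its nearest peak at 2.32 kb in replicate 1 and 2.34 kb in replicate 2. The 19 with a peak had a median mean value of 0.873.

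Of CpG-rich promoters of germ cell and meiosis genes, 8 of 27 (29.6%, 15.9 to 48.5) had no peak, 1 had a peak in replicate 1 only and 18 had one in both libraries. At a CpG observed/expected of at least 0.8 the share was 8.33% (of 12 promoters). Zfp541, a chromatin factor of spermatocytes, had 94 CpGs and its nearest peak 5.05 kb away in replicate 1 and 5.08 kb away in replicate 2. Tdrd6, a Tudor protein of the chromatoid body of spermatids, had 84 CpGs and distances of 8.59 and 8.61 kb. Ddx4, the mouse Vasa RNA helicase, had 73 CpGs and distances of 8.11 and 8.09 kb. Sycp1, a central component of the synaptonemal complex, lay 29.7 kb from a peak in each library. The 18 accessible promoters of the list had a median mean peak value of 1.95, and Zcwpw1, a histone reader of meiotic recombination sites, reached 10.4 in replicate 1 and 6.51 in replicate 2. The median mean peak value of all CpG-rich promoters with a peak in both was 3.83.

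Neuronal lists had few CpG-rich promoters, and few members. No promoter was without a peak among 6 excitatory neuron genes, 7 pan-neuronal genes and 14 genes of voltage-gated potassium channels, each list taken over its CpG-rich promoters. With so few promoters the upper limits of the shares were 39.0%, 35.4% and 21.5%, all above the 3.44% of all CpG-rich promoters. The lack of members thus does not set these lists apart. The share was 14.3% (2.57 to 51.3) for GABAergic interneuron genes and 25% (4.56 to 69.9) for transmitter genes of neurons outside the hippocampus, with 1 member each. Slc32a1, the vesicular transporter that loads GABA in inhibitory neurons, was the 1 of 7 GABAergic interneuron genes without a peak, and its nearest peak was 2.85 kb from a TSS in replicate 1 and 2.89 kb in replicate 2. Of the other 6, Dlx2 and Dlx6 had a peak in replicate 1 only, Erbb4 and Reln in replicate 2 only, and Cnr1 and Dlx5 in both. Slc18a3, the vesicular transporter of acetylcholine, was the 1 of 4 CpG-rich transmitter genes of neurons outside the hippocampus without a peak, with distances of 8.27 and 8.29 kb. The 3 CpG-rich genes of adult function in other tissues, Cdh1, Cftr and Des, each had a peak in 1 library, at values of 0.310 to 0.575.

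Clustered protocadherins are cell surface proteins that give single neurons their identity, each neuron using a few of the many alternative promoters of the clusters on chromosome 18. Of their 8 CpG-rich promoters 6 had no peak (40.9 to 92.9%): Pcdha5, Pcdha6, Pcdha7, Pcdha8, Pcdhga8 and Pcdhga10. Pcdhga11 had a peak in 1 library and Pcdhgc3 in both. Pcdhgc3 had a mean peak value of 4.39. The 6 members had 33 to 41 CpGs each, near the lowest of all members. Of all CpG-rich promoters under 40 CpGs, a bin that takes in most of these members, 51.4% (18 of 35) had no peak. At a CpG observed/expected of at least 0.8 the share of the list was 0% (of 1 promoter). The nearest peak to the Pcdha promoters was 7.15 to 39.1 kb away in replicate 1 and 97.5 to 129 kb away in replicate 2, so the distances differ widely between the libraries. In each of the 6 members between 2.99% and 29.0% of the promoter's 31-mers were repeated elsewhere.

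Housekeeping lists had no member. All 67 CpG-rich promoters of cytosolic ribosomal proteins (upper limit of the share without a peak 5.42%) and all 19 of proteasome subunits (16.8%) had a peak in both libraries, with median mean peak values of 5.31 and 4.04. Both upper limits lie above the 3.44% of all CpG-rich promoters, so lists of this size do not set these genes apart. Zinc finger genes named Zfp, a large family that includes many repressors, had 3 members among 118 (2.54%), near the 3.44% of all CpG-rich promoters. The list of X-linked and reproductive multigene families had 1 member among 8, Pramel1, but its name pattern also took 4 genes of other families (Slx1b, Slx4, Slx4ip and Ssx2ip), all with a peak.

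A separate set of members sat in sequence that is present more than once in the genome. In 28 members (10.8%, 7.59 to 15.2) at least 50% of the promoter's 31-mers occurred elsewhere, against 43 (0.606%, 0.451 to 0.816) of CpG-rich promoters with a peak in both libraries, a difference of 10.2 percentage points (95% Newcombe interval 6.97 to 14.6). This property of the genome was not part of the rule. At 90% or more repeated, 25 of 34 CpG-rich promoters (73.5%, 56.9 to 85.4) had no peak, and under 10% repeated 212 of 7034 (3.01%). The median member had 0% repeated. How reads that fit several places were placed is not known from the labels, and its part in these counts was not tested.

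In 21 of the 28 repeated members at least 50% of the 31-mers were also in the promoter of another single member elsewhere in the genome, and in 7 they were not. All 6 members among 60 CpG-rich replication-dependent histone promoters were of this kind: Hist1h2ao, Hist1h2ap, Hist1h2bq and Hist1h2br at 100% repeated, and Hist2h3c1 and Hist2h3c2 at 96.8%. Without promoters of which at least 50% was repeated, no histone member was left. Repeated sequence did not always go with the lack of a peak: of 21 CpG-rich histone promoters repeated to at least 50%, 15 had a peak in both libraries. Of 8 repeated to at least 90%, 6 were the members and 2 had a peak in both libraries, Hist1h4m (96.3% repeated, values of 0.973 and 1.02) and Hist1h4n (97.2%, 0.681 and 0.578). Further pairs were Srp54b and Srp54c, which encode a subunit of the signal recognition particle, Entpd4 and Entpd4b, and Slc25a37, the mitoferrin of mitochondrial iron import, with Gm16867, all at 100%. Tcte3 and its relatives Gm3417, Gm3435 and Gm3448 stood at 99.6 to 100%. Of 19 members among 240 predicted gene models, 12 were repeated to at least 50%. The highest CpG observed/expected in repeated sequence was 1.00, in BC107364.

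The sex chromosome and mitochondrial members need their own mention, since the mice were female. All 5 CpG-rich promoters on the Y chromosome were members, namely Ddx3y, Eif2s3y, Kdm5d, Uty and Gm47283, and the 1 on the mitochondrial genome was mt-Nd1. The longer lists held 39 peaks on the Y chromosome in replicate 1 and 34 in replicate 2, and no peak on the mitochondrial genome. On the X chromosome 7 of 147 CpG-rich promoters (4.76%, 2.33 to 9.50) had no peak, against 246 of 7374 on autosomes (3.34%, 2.95 to 3.77), and these intervals overlap. Without the Y and mitochondrial genes 253 members remained.

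Members on no list were varied. Among them, picked after the values were seen, were genes of epithelia: Spint1 and St14 (a protease inhibitor and the protease matriptase), Esrp2 (an epithelial splicing factor), Itgb4 (an integrin of hemidesmosomes), Kdf1, Ripk4, Marveld3 and Bspry. Esrp2 had its nearest peak at 1.21 kb in both libraries and Marveld3 at 7.17 kb in replicate 1 and 41.4 kb in replicate 2. Vascular genes were present as well, with Flt1 and Flt4, receptors of vascular endothelial growth factors. Flt1 lay 1.29 kb from a peak in replicate 1 and 1.30 kb in replicate 2. Some members encode proteins of neurons: Grin2c, the NMDA receptor subunit of cerebellar granule cells, with a peak 3.34 kb away in each library, Oprd1, the delta opioid receptor, at 7.10 and 12.4 kb, and Kcnk9, a background potassium channel, at 1.30 and 3.14 kb. No test was made on these groupings, and no share was counted over all CpG-rich epithelial or vascular genes. Being picked from members only, these genes do not show that such kinds are typical of members.

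Members differed in how close the next peak was. For the 258 members on chromosomes with peaks, the nearest peak to a TSS lay 1.03 to 304 kb away in replicate 1, with a median of 6.95 kb and quartiles of 3.10 and 13.7 kb. In replicate 2 the range was 1.06 to 949 kb, the median 9.75 kb and the quartiles 3.68 and 27.3 kb. The nearest peak was closer in replicate 1, the library with more peaks, for 174 of the 258. For 122 the distances in both libraries agreed to within 0.1 kb. The nearest peak was within 2 kb in both libraries for 25 members and beyond 10 kb in both for 87.

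**Figure D4:**
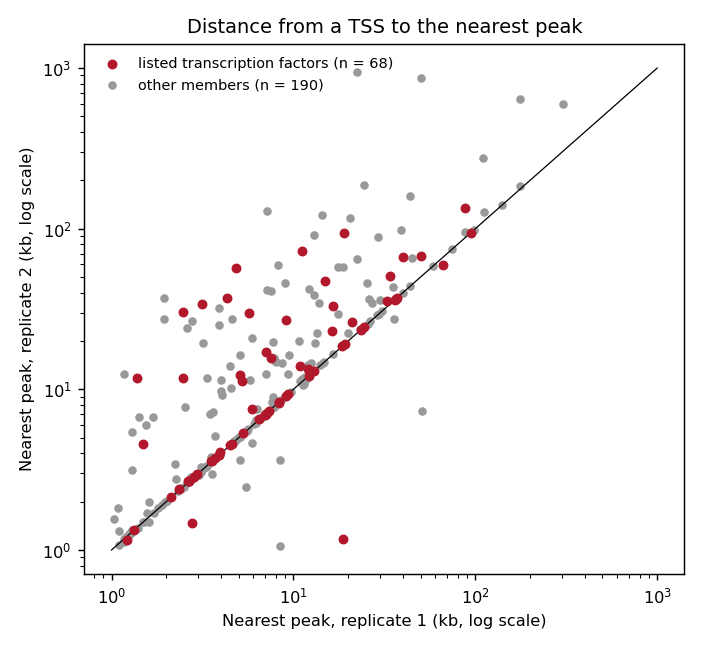
Distance from any TSS of a member to the nearest peak in replicate 1 (x axis, kb, log scale) and in replicate 2 (y axis, kb, log scale), with transcription factors of the Hox, other homeobox and other developmental lists in red (n = 68) and the other members in grey (n = 190). Many points lie on the line of equal distance, most others above it, and the medians of the listed factors, 7.06 kb in replicate 1 and 11.8 kb in replicate 2, are close to those of the other members, 6.46 and 9.13 kb.

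Peaks at 1 to 10 kb were counted as well. A peak lay 1 to 10 kb from the gene 5' end of 57.9% of members in replicate 1 (51.8 to 63.8) and of 40.9% in replicate 2 (35.1 to 47.0). The shares were 64.5% and 46.1% for CpG-rich promoters with a peak in both libraries, and 57.3% and 41.7% over all protein-coding genes. In replicate 1 the interval of members lay below the share of CpG-rich promoters with a peak in both libraries and included that of all genes, and in replicate 2 it included both. The rule bars peaks at every TSS of a member, also at TSSs 1 to 10 kb from the gene 5' end. In the other classes such peaks count, so the choice of members lowers their shares and means by construction. The size of this effect was not tested. The mean number of such peaks was 1.06 in members and 1.29 in CpG-rich promoters with a peak in both for replicate 1, and 0.676 and 0.826 for replicate 2. Cnn2, which encodes a calponin of the actin cytoskeleton, had 7 such peaks in each library, the most with Gm12184.

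Weak signal below the peak lists was seen at some members. The deposited base lists give bases whose cut rate passed an FDR of 0.05, and 26 members (10.04%, 6.94 to 14.3) had at least 1 such base within 1 kb of a TSS in either library, against 3.24% of promoters without a peak that are not CpG-rich. In replicate 1 alone the shares were 3.47% of members (9, interval 1.84 to 6.47) and 2.2% of those other promoters (158 of 7167), whose interval of 1.89 to 2.57 overlaps it. In replicate 2 alone they were 7.72% of members (20) and 1.33% of those other promoters, so the contrast rests on replicate 2. Tead4, Gsg1l and Tox3 were listed in both libraries. These values come from the same reads as the peaks and are a description. Mixl1, a homeobox factor of early mesoderm and endoderm, had 47 listed bases in replicate 2 and 0 in replicate 1. Prok2, a secreted signal of the circadian clock and olfactory bulb, had 44 and Tdrd6 39, again in replicate 2 alone. Col12a1, a collagen, had 34 and Plce1, a phospholipase, 31, in replicate 1 alone. The lowest FDR at any member was 0.0170, at Tdrd6, and no member had a base under 0.01 (0 of 259, upper limit 1.46%), against 0.349% of promoters without a peak that are not CpG-rich.

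Footprints, short stretches protected from cutting inside accessible regions, were at 0 members in either library and at 98.9% of CpG-rich promoters with a peak in both libraries in replicate 1 and 98.5% in replicate 2. Footprints lie in accessible regions, so the choice of members by their lack of peaks fixes this contrast and it is no finding. CpG-rich promoters with a peak in 1 library had a median peak value of 0.646 where it was in replicate 1 only and 0.629 where it was in replicate 2 only.

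Motif letters that the rule did not use except through CpG content were searched on both strands in the 300 bp from 250 bp before to 50 bp after the gene 5' end. Of 21 motifs, 5 were in a lower share of members than of CpG-rich promoters with a peak in both libraries with a 95% Newcombe interval that leaves out 0, 1 was in a higher share, and the intervals of 15 included 0. The largest difference was that of the ETS motif CCGGAAG, the site of a large family of activators of housekeeping promoters. It was in 4.63% of members (12 of 259), against 19.7% of promoters with a peak in both, a difference of -15.1 percentage points (-17.3 to -11.7), and in 10.8% of all protein-coding promoters. The members that hold it were Bspry, En1, Fkbp6, Gm3417, Gm3435, Gm3448, Papolb, Sec1, Spint1, Tcf24, Tcte3 and Tex11, of which Tcte3 and the 3 Gm genes each share 94.9 to 99.2% of their promoter's 31-mers with another of these 4.

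The ETS difference was present at each level of CpG content. Between a CpG observed/expected of 0.7 and 0.8 the share was 3.50% in members and 18.9% in promoters with a peak in both, between 0.8 and 0.9 it was 7.14% in members and 22.1% in promoters with a peak in both, and between 0.9 and 1 it was 4.76% in members and 18.4% in promoters with a peak in both. At 1 and over it was 0 of 4 members and 15.6% of promoters with a peak in both, too few members to compare. Among promoters with under 10% repeated sequence it was 3.30% in members and 19.6% in promoters with a peak in both. Of the promoters printed above, Hjurp holds the ETS letters and the 4 members do not.

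The other motifs with lower shares in members were YY1, in a full and a core form, the cyclic AMP response element and NRF1. The full YY1 form contains the core, so these 2 are not separate results. By bin of CpG observed/expected, the intervals of NRF1 and full YY1 included 0 in every bin. Those of the YY1 core and the cyclic AMP response element left out 0 only at 0.7 to 0.8. With under 10% repeated sequence the interval of full YY1 included 0 (-2.12 to 0.0315). The core of the YY1 site, ATGGCGG, was in 3.09% of members and 9.13% of promoters with a peak in both (a difference of -6.04 points, -7.70 to -3.08), and in 4.79% of all promoters. The cyclic AMP response element TGACGTCA was in 1.16% of members and 4.29% of promoters with a peak in both (-3.13, -4.04 to -0.893), and in 2.43% of all promoters. The NRF1 site was in 0.386% of members and 2.89% of promoters with a peak in both (-2.51, -3.03 to -0.70), and in 1.22% of all promoters; Onecut1 was the 1 member that holds it. The TATA box letters TATAAA were in 10.8% of members and 5.68% of promoters with a peak in both (5.13, 1.85 to 9.53), and in 12.6% of all promoters. In the longer window of 500 bp on either side the TATA difference was 3.02 points and its interval, -1.57 to 8.45, included 0.

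**Figure D5:**
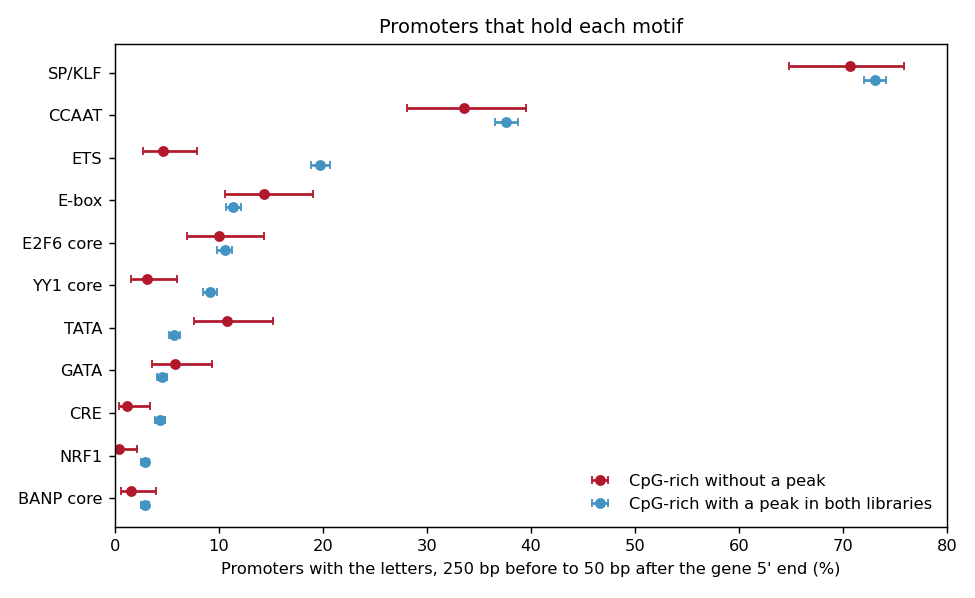
Share of promoters (x axis, %, 250 bp before to 50 bp after the gene 5' end) that hold each motif on either strand, for CpG-rich promoters without a peak (red, n = 259) and with a peak in both libraries (blue, n = 7090), with 95% Wilson intervals. The red and blue intervals are apart for ETS (4.63% and 19.7%) and overlap for SP/KLF (70.7% and 73.1%).

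For the remaining motifs the intervals of the difference in this 300 bp window included 0. The SP/KLF letters GGGCGG, the commonest motif of CpG islands, were in 70.7% of members and 73.1% of promoters with a peak in both (-2.43 points, -8.34 to 2.88), and in 43.0% of all promoters. The CCAAT box was in 33.6% of members and 37.6% of promoters with a peak in both (39.0% of all promoters). The E-box CACGTG was in 14.3% of members and 11.4% of promoters with a peak in both (7.75% of all). Between a CpG observed/expected of 0.8 and 0.9 the E-box was in 24.3% of members and 11.7% of promoters with a peak in both (3.95 to 23.9 points), while in each of the other bins the interval included 0. The other E-box form searched, CAGCTG, was in 10.8% of members and 12.7% of promoters with a peak in both (15.6% of all). The E2F6 core TTCCCGC was in 10.04% of members and 10.5% of promoters with a peak in both (5.72% of all). The BANP core CTCGCGAG was in 1.54% of members and 2.88% of promoters with a peak in both (1.21% of all). The GATA letters AGATAA were in 5.79% of members and 4.53% of promoters with a peak in both (10.2% of all). Part of the REST site, TTCAGCACC, was in 0.386% of members and 0.437% of promoters with a peak in both (0.383% of all), and within 500 bp on either side in 3.86% of members (10) and 1.69% of promoters with a peak in both (0.388 to 5.28 points). A match to letters is not a bound site, and binding was not measured.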

How the data were processed

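DNase-seq libraries of 2 replicates were analysed from the files the authors deposited on mm10 (GRCm38). Per the descriptions deposited with the files, peaks, footprints and bases with a false discovery rate were derived for each library from its alignments. The sources used here do not name the aligner, the callers or the handling of reads that fit several places. Peak values are a signal that the authors deposited, scaled to the library on a scale that is not stated. The deposited base lists give an FDR (read as a q-value) and hold only bases under 0.05. The deposited footprint lists carry 0.01 on every line, read as a p-value threshold, and only their positions were used. The assembly is that of C57BL/6J while the mice were F1 hybrids, and the part of CAST/EiJ differences was not tested. Without read counts, the precision per site is unknown.

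TSSs came from GENCODE M21 and sequence from RefSeq GRCm38.p6. A gene had a peak where a peak of the longer list overlapped the 1 kb on either side of any annotated TSS, and its value was the highest such peak. CpG islands were windows of 200 bp with at least 50% GC and a CpG ratio of at least 0.6, joined around the 5' end. A 31-mer was repeated where it occurs again on the chromosomes or unplaced contigs on either strand. Shares carry 95% Wilson intervals and differences Newcombe intervals, and no test was run. Functions were tested on simulated promoters. Python 3.11.15, NumPy 2.4.6, pandas 2.3.3, Numba 0.67.0 and Matplotlib 3.10.9 were used.

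The members, the 18 gene lists and the 21 motifs were chosen with earlier results of these data known, and the 11 motifs plotted were picked after their shares were seen. Named genes were the 10 highest CpG ratios under 10% repeated sequence and the 5 highest of the rest, per list the 3 members with the most CpGs, the 5 with the most listed bases, the 5 with the most peaks at 1 to 10 kb, and those nearest the limits; other names were chosen after their values were seen, and some genes that the rule takes are not described. Alternatives were the shorter peak lists, other windows, thresholds and TSS sets, unique sequence and each library left out.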

Additional observations from a re-analysis of the deposited data

How the results depend on the processing

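The number of CpG-rich promoters without a peak, 259 (3.44%), moved most with the peak list and the CpG threshold: it was 488 (6.48%) with the shorter peak lists, 513 (5.08%) at a CpG observed/expected of 0.6 and 116 (2.59%) at 0.8. The share was 4.01% with windows of 500 bp, 2.78% with 2.5 kb, 4.01% with the TSSs of protein-coding transcripts only (genes with none left out), 4.20% with the gene 5' end only and 3.01% among promoters with under 10% repeated sequence. Leaving out 1 library gave 334 to 362 promoters (4.44% to 4.81%). Without the Y and mitochondrial genes, an alternative chosen after seeing the data, it was 253 (3.36%). The share of CpG-rich Hox promoters without a peak was 88.2% (of 17) with windows of 2.5 kb and 96% (of 25) at a CpG observed/expected of 0.6. That all 17 lacked a peak in each library alone follows from the rule. The share of other homeobox factors without a peak was 77.4% with the shorter lists and 81.1% without replicate 1, and that of other developmental factors 62.5% and 55.4%. At a CpG observed/expected of 0.8 the share of germ cell genes was 8.33% (of 12) and that of signalling genes 20% (of 15). The share of histone promoters without a peak was 0% with windows of 2.5 kb. Of all gene list values under these settings, 179 moved by less than their interval and 18 by more. The share of members with listed bases was 0% at an FDR of 0.01, against 10.04% at 0.05. The share of members with the ETS letters was 12.7% within 500 bp on either side, against 33.6% of promoters with a peak in both libraries, and 3.30% in unique sequence. At 500 bp on either side the E-box letters were in 28.2% of members and 22.8% of promoters with a peak in both (0.112 to 11.2 points), and part of the REST site in 3.86% of members and 1.69% of promoters with a peak in both. Without replicate 2 the share of members with listed bases was 3.47%. The causes of these shifts were not tested beyond what each setting changes by construction. No paired analysis was possible because there is 1 group. Peak calls limit every count: without read depth, a promoter with no peak may hold accessibility below the limit of detection.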
